A study of Mus musculus with 10 samples.

Results

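The HOX genes measured here are 38 genes of the 45706 in the count table, chosen by matching each Ensembl identifier to its gene symbol in the GRCm38 annotation. All 38 symbols were found in the table. They comprise 10 genes of the HOX A cluster, 10 of HOX B, 9 of HOX C and 9 of HOX D. The A cluster occupies chr6:52162417-52260880, the B cluster chr11:96194316-96368256, the C cluster chr15:102921103-103036852 and the D cluster chr2:74668310-74765142.

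Uterine tissue was taken from adult female mice of mixed 129S1/SvImJ, 129P2/OlaHsd, 129S6/SvEvTac and C57BL/6 background on gestation day (GD) 3.5, counted from the vaginal plug after mating to wildtype males. This is the day on which the uterus prepares to receive the embryo. One group of 5 uteri came from Arid1a f/f mice, in which both copies of Arid1a carry sites for Cre but no Cre is present; these were the controls. The other 5 uteri came from Ltf iCre/+ Arid1a f/f mice, which carry the same floxed alleles together with 1 copy of Cre placed in the lactoferrin (Ltf) locus, which is active in the endometrial epithelium of adult females; these are the conditional knockout uteri. Arid1a encodes a subunit of the SWI/SNF chromatin remodeling complex. Part of each uterus was used without separation of its layers, so that stroma, myometrium, epithelium and leukocytes all contributed to the RNA. In such bulk samples, fewer cells of a type and less RNA per cell cannot be told apart.

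HOX genes encode homeodomain transcription factors that give cells their position along the axes of the body. They lie in clusters, and genes at the same place in different clusters are paralogues with the same number. In the embryo, low-numbered genes act toward the head and high-numbered genes toward the tail. Along the female reproductive tract, Hoxa9 marks the region of the oviduct, Hoxa10 the uterus, Hoxa11 the uterus and cervix, and Hoxa13 the cervix and vagina. Hoxa10 and Hoxa11 are needed in the adult mouse uterus for implantation and decidualization. HOX proteins bind DNA together with PBX, MEIS and PKNOX proteins, and their clusters are kept silent by Polycomb complexes and kept open by trithorax (MLL) complexes.

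The 10 libraries held between 59296537 and 72702411 counts. Levels are given as CPM, counts per 1000000 counts of the scaled library, and levels of different genes are compared only as CPM per kb of annotated exon. Differences are log2 fold changes of conditional knockout over control uteri with their standard error (SE), tested with edgeR's quasi-likelihood test, and a gene was called where the adjusted p was below 0.05. Arid1a itself stood at 192 to 251 CPM in controls and 165 to 208 CPM in conditional knockout uteri (log2 fold change -0.20 ± 0.09 SE, adjusted p = 0.201). This count covers the whole gene and all cells of the uterus, and does not single out the deleted part.

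Conditional knockout uteri 1 and 5 stood apart from the other 8 libraries in the medians of their HOX A and HOX B genes. Uterus 1 also stood apart in HOX D, where the median of uterus 5 lay within the controls. Uterus 5 alone held neither the highest nor the lowest of the 10 values for any HOX gene tested. It shared the lowest value, 0 counts, with other uteri for Hoxd12 and Hoxd13. Uterus 1 held the highest of the 10 values for 9 of the 33 HOX genes tested and the lowest for 15. Its tie at 0 counts for Hoxd12 is not included. The same uterus had the highest summed level of 10 epithelial markers, at 2740 CPM, followed by uterus 5 at 1869 CPM. The other 3 conditional knockout uteri lay between 1231 and 1514 CPM, and the controls between 827 and 1098 CPM. Of these 10 markers, 8 were called higher and none lower (5, 4, 3 and 4 without controls 1, 2, 3 and 5, 6 to 8 without any other 1 uterus, and 7 without both uteri 1 and 5). The share called over all genes tested was 5.19% higher and 4.51% lower. Results in which these 2 uteri stand out are therefore also given without them.

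The promoters of 5 HOX genes are shown, picked by the levels of these genes given below. No result below rests on these sequences. Hoxa10 and Hoxa11 had the highest levels, and the values of Hoxd8 did not overlap between the genotypes. Hoxb8 was one of the highest of the B cluster, and Hoxd13 was near 0. Each sequence runs 5′ to 3′ on the strand of its gene, from 250 bases before to 50 bases after a transcription start. Starts are as given by RefSeq for GRCm38.p6. Capitals mark matches, on either strand, to the TATA sequence TATAAA, the CCAAT box CCAAT, the PBX and HOX composite sequence TGATNNAT, or the nuclear receptor core site AGGTCA. For Hoxa10 the start that carries a TATA match is shown, and overlapping matches are capitalized as 1 run.
Hoxa10, chr6:52234890-52235189, minus strand: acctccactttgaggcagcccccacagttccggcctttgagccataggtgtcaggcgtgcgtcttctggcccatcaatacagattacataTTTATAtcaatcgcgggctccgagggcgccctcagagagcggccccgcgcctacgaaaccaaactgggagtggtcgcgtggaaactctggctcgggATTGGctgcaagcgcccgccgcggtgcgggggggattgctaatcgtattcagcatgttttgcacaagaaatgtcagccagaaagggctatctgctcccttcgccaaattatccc
Hoxa11, chr6:52245761-52246060, minus strand: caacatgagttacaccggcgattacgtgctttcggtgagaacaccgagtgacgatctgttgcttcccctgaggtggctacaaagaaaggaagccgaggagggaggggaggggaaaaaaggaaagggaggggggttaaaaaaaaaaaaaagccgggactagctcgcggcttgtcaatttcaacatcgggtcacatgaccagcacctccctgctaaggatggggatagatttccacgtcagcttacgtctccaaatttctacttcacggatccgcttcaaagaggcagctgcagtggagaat
Hoxd8, chr2:74704365-74704664, plus strand: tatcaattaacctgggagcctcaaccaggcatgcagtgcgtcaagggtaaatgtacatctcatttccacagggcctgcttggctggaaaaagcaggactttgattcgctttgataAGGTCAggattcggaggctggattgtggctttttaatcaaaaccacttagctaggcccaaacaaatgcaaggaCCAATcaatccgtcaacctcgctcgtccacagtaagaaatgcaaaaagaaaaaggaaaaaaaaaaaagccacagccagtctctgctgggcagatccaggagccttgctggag
Hoxb8, chr11:96281655-96281954, plus strand: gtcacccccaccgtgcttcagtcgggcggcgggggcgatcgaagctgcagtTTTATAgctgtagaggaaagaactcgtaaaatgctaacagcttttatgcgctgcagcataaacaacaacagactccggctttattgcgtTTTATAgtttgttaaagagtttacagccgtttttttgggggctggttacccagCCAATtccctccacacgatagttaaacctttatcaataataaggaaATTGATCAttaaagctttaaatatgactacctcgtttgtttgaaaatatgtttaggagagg
Hoxd13, chr2:74667975-74668274, plus strand: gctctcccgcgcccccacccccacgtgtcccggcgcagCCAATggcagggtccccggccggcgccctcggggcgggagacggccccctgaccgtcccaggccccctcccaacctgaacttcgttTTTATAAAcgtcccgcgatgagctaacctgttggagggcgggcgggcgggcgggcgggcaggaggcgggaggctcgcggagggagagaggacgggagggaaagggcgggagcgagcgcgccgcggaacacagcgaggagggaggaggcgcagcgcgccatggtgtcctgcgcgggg

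RefSeq promoters were matched for 22 of the 38 genes, as 24 sequences, because Hoxa10 and Hoxd11 each had a pair of starts. TATAAA was found in 4 of the 24, against 13.6% of all 32851 promoters in the same table. CCAAT was found in 15 of the 24, against 37.4%. TGATNNAT was found in 4, against 8.85%, and AGGTCA in 7, against 16.3%. The number of CpG pairs in the 300 bases had a median of 14.5 over the HOX sequences and 7 over all promoters. Among genes near 0 in the uterus, it was 45 at Hoxa13, 37 at Hoxd13, 29 at Hoxd1, 13 at Hoxd12 and 10 at Hoxb1. At the starts of Hoxa10, the highest gene, it was 21 and 12. The promoter of Hoxa11 held 15 CpG pairs and matched none of the 4 motifs, and that of Hoxd8 held 6. A match describes the letters in this window and shows no binding.

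At GD 3.5, most of the summed HOX level of control uteri came from a limited stretch of the clusters. In controls, the genes with numbers 9 to 11 held 78.9% ± 1.35 (SD, n = 5) of the summed CPM per kb of all 38 genes. Hoxa10 and Hoxa11 alone held 52.8% ± 2.51. The A cluster held 58.2% ± 2.34, the D cluster 26.7% ± 1.99, the B cluster 14.04% ± 1.21 and the C cluster 1.08% ± 0.173 of the total. This order did not depend on whether exon length was corrected for.

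Of the 38 genes, 22 stood at 1 CPM per kb or more in controls. Hoxa10 was highest at 155 ± 9.75 CPM per kb (SD, n = 5), above 99.6% of the genes in the table that the annotation holds. Hoxa11 followed at 136 ± 13.2 CPM per kb. Hoxa10 was above Hoxa11 in 5 of 5 controls, although the ranges of both genes overlapped. Hoxa11 shares 35.0% of its annotated exon bases with the antisense gene Hoxa11os, and Hoxa10 shares none. How the counting treated strand is not given, so that the order of Hoxa10 and Hoxa11 is uncertain. Hoxd10 at 60.4 ± 4.79, Hoxd9 at 42.9 ± 2.68 and Hoxd8 at 25.5 ± 2.10 CPM per kb came next, each with a range apart from the gene above it. Hoxa9, next below, has 5580 annotated exon bases but a longest transcript of 3226 bases. Its place in this order therefore depends on the length used.

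Below these, neighbors in the order often did not differ beyond their spread. Hoxa9 at 23.3 ± 2.41 CPM per kb overlapped Hoxd8, and it overlapped Hoxb6 at 19.9 ± 2.29 CPM per kb, the highest gene of the B cluster. Hoxb6 and Hoxb8, at 19.6 ± 2.34 CPM per kb, changed places between uteri, with Hoxb6 above in 2 of 5 controls. Hoxb7 at 12.8 ± 1.38 and Hoxd11 at 11.7 ± 2.18 CPM per kb overlapped as well. From Hoxb4 at 6.85 ± 0.809 CPM per kb down to Hoxa6 at 1.11 ± 0.237 CPM per kb, each of the 12 genes overlapped the next.

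**Figure D1:**
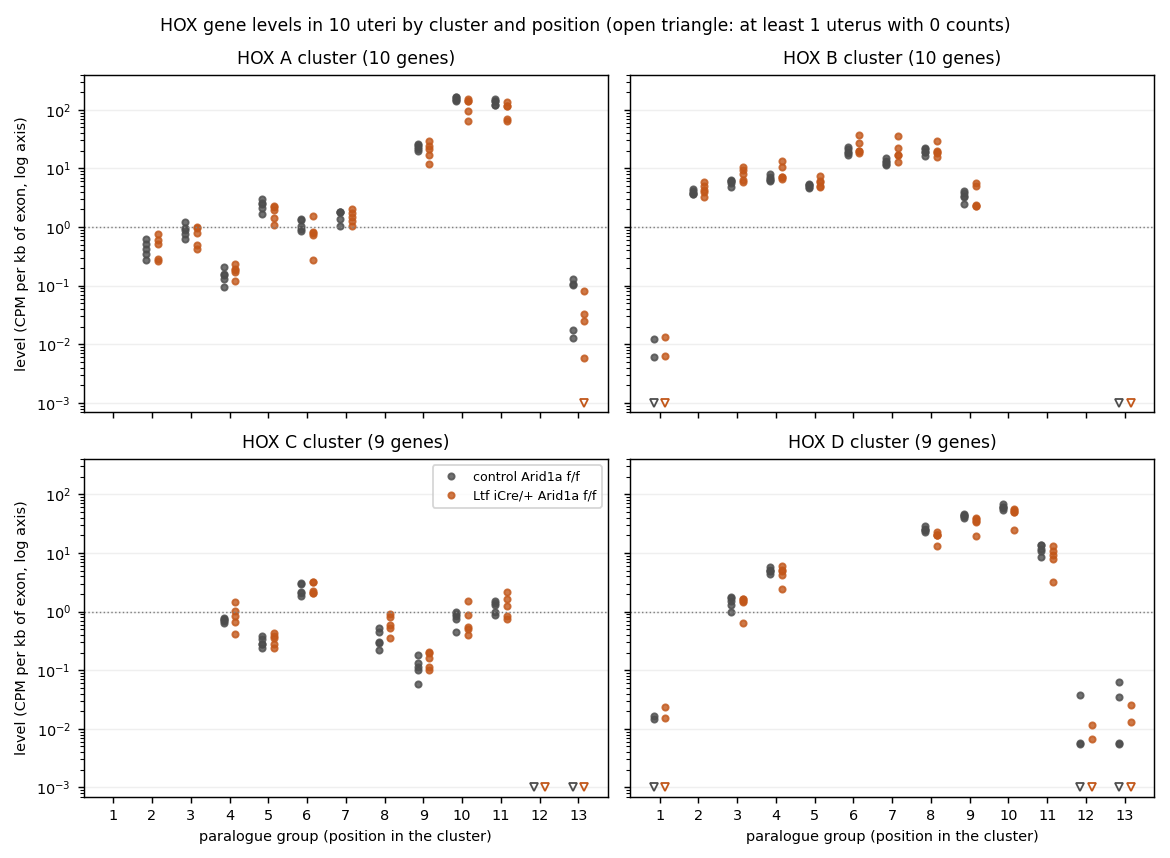
Level of each HOX gene by cluster and paralogue number, in CPM per kb of exon on a log axis, with 1 point per uterus; gray points are the 5 controls, orange points the 5 Ltf iCre/+ Arid1a f/f uteri, the dotted line is 1 CPM per kb and open triangles at the bottom mark genes with 0 counts in at least 1 uterus. The A and D clusters peak at Hoxa10 (155 CPM per kb in controls) and Hoxd10 (60.4), the B cluster is broad between Hoxb2 and Hoxb9, and the C cluster stays below 3 CPM per kb on average.

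The profile along the chromosome differed between the clusters. In the A cluster, Hoxa2, Hoxa3 and Hoxa4 lay between 0.1495 and 0.895 CPM per kb in controls, Hoxa5, Hoxa6 and Hoxa7 between 1.11 and 2.37, and the level then climbed through Hoxa9 to Hoxa10 and Hoxa11 before it dropped to 0.0743 ± 0.0551 CPM per kb at Hoxa13, the gene of the cervix and vagina. In the D cluster, Hoxd3 stood at 1.46 ± 0.326 and Hoxd4 at 5.02 ± 0.557 CPM per kb, and Hoxd8 to Hoxd11 held the highest values. Hoxd3 and Hoxd4 share more than 50% of their annotated exon bases with other genes, 62.8% and 52.3%, so that the split of reads between them is uncertain. In the B cluster, the 8 genes from Hoxb2 to Hoxb9 all lay between 3.43 and 19.9 CPM per kb. The C cluster reached 2.45 ± 0.555 CPM per kb at Hoxc6 and 1.22 ± 0.275 at Hoxc11, and its other genes were below 1 CPM per kb.

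The 8 lowest HOX genes in CPM per kb had few or no counts. Hoxb13, known for its role in the prostate, and Hoxc12 and Hoxc13, genes of the hair follicle, had 0 counts in all 10 libraries; the limit of 3 counts for a library without counts lies between 0.0418 and 0.0507 CPM. Hoxb1, a gene of the hindbrain, had at most 2 counts in a library, and Hoxd1 at most 3. Hoxd12 had at most 6 counts and Hoxd13, needed in the distal limb and genital tubercle, at most 10. Expression of these 7 genes was at or near the limit of detection at this depth. Hoxa13 had 0 to 23 counts, with more than 3 counts in 6 of 10 libraries and 14 to 23 in 4 of them.

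None of the HOX genes was called by edgeR in conditional knockout uteri. Of the 38 genes, 33 passed the filter of a mean of 1 count per library and were tested; Hoxb1, Hoxb13, Hoxc12, Hoxc13 and Hoxd1 did not pass. Over all 25146 genes tested, 5.19% were called higher and 4.51% lower, whereas 0 of the 33 HOX genes were called in either direction. Their median log2 fold change was -0.05, against 0.03 over all genes tested. At an unadjusted p below 0.05 there were 5 HOX genes, Hoxb3, Hoxb7, Hoxc8, Hoxd8 and Hoxd9, against 26.2% of all genes tested. DESeq2 called Hoxb7 (adjusted p = 0.0274) and Hoxc8 (adjusted p = 0.0460) higher and Hoxd8 (adjusted p = 0.0304) lower, where it called 8.47% of all genes higher and 7.84% lower.

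The values leaned in opposite directions by cluster, without any single gene passing the test. The log2 fold change was below 0 for 8 of 10 genes in the A cluster (median -0.34), for 8 of 8 in the D cluster (median -0.38), for 0 of 8 in the B cluster (median 0.25) and for 1 of 7 in the C cluster (median 0.13). Over all genes tested, 52.7% had a log2 fold change above 0. These counts were the same with DESeq2 size factors and with upper-quartile scaling. Without uterus 1 the medians were -0.16 in A, -0.20 in D (over 9 genes tested), 0.10 in B and 0.23 in C. Without uteri 1 and 5 they were -0.03 in A, -0.25 in D, -0.0062 in B and 0.23 in C, and the log2 fold change was below 0 for 5 of 10 genes in A, 6 of 8 in D, 4 of 8 in B and 1 of 7 in C. Genes of a cluster were measured in the same libraries and are not independent of each other.

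**Figure D2:**
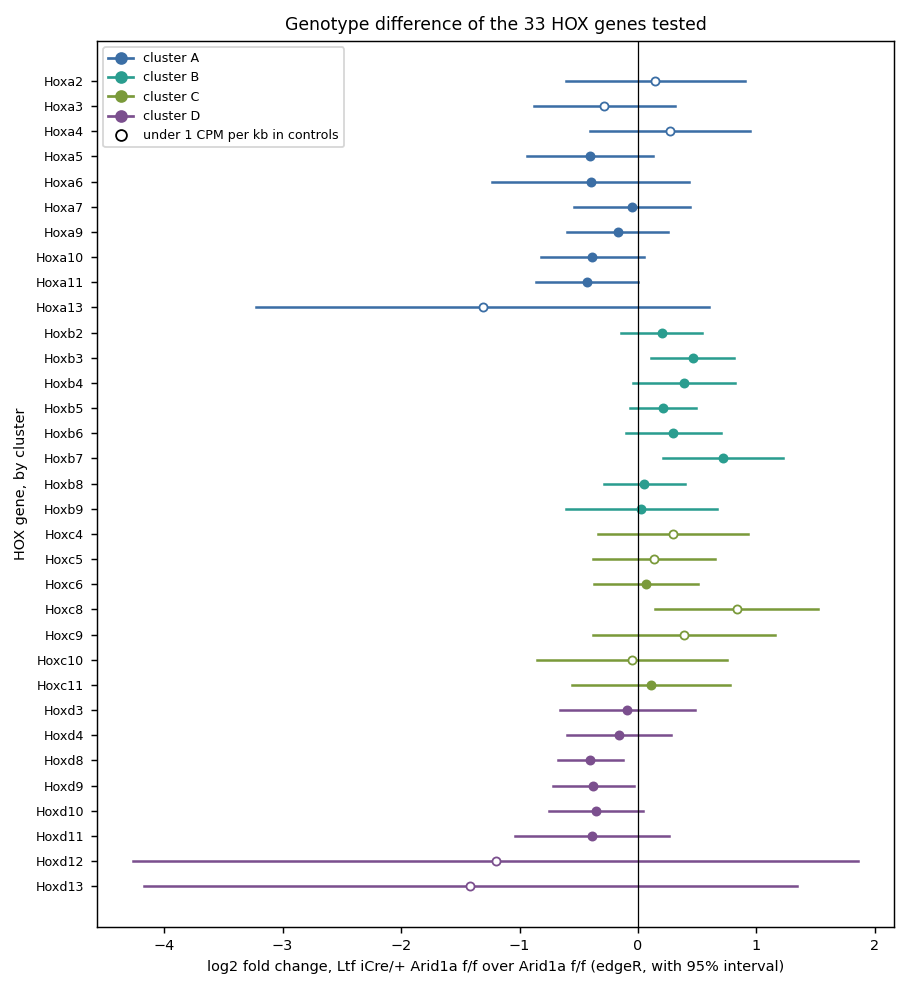
Log2 fold change of each of the 33 HOX genes tested, Ltf iCre/+ Arid1a f/f over Arid1a f/f, with its 95% interval from edgeR; colors mark the cluster and open circles mark genes below 1 CPM per kb in controls. All 8 points of the D cluster lie below 0 and all 8 of the B cluster above 0, and the intervals of Hoxb3, Hoxb7, Hoxc8, Hoxd8 and Hoxd9 leave out 0 while their adjusted p values stayed above 0.05.

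In the A cluster, Hoxa10 and Hoxa11 were low in conditional knockout uteri 1 and 5. Hoxa10 stood at 503, 541, 469.8, 487 and 540.1 CPM in controls 1 to 5. The conditional knockout uteri 1 to 5 had 212.5, 454, 470.1, 492 and 316 CPM. The genotypes overlapped, with 3 of 5 conditional knockout uteri below every control.

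Its log2 fold change was -0.39 ± 0.20 SE (adjusted p = 0.247, exact permutation p = 0.0397), with a 95% interval from -0.82 to 0.05. It was -0.24 without uterus 1 and -0.11 without uteri 1 and 5. Hoxa11 stood at 323, 347, 277, 281.5 and 325 CPM in controls and at 147, 267, 265, 314 and 159.5 CPM in conditional knockout uteri. Uteri 1 and 5 were again the lowest, and 4 of 5 were below every control. The log2 fold change of Hoxa11 was -0.43 ± 0.20 SE (adjusted p = 0.193, exact permutation p = 0.0397), and -0.14 without uteri 1 and 5. The ratio of Hoxa10 to Hoxa11 in CPM per kb was 1.15 ± 0.0553 in controls and 1.184 ± 0.143 in conditional knockout uteri (SD, n = 5 each).

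Hoxa9, the paralogue next to Hoxa10, stood at 113 to 145 CPM in controls. The 5 conditional knockout uteri had 67.0, 121, 135, 161 and 94.1 CPM, so that uterus 4 was above every control while uteri 1 and 5 were below. Its log2 fold change was -0.17 ± 0.19 SE (adjusted p = 0.642), and 0.10 without uteri 1 and 5. Among the low-level genes of the cluster, the log2 fold change was -0.40 ± 0.24 for Hoxa5 and -0.40 ± 0.38 for Hoxa6. Hoxa5 acts in the lung and the axial skeleton. The log2 fold change was -0.05 ± 0.22 for Hoxa7, -0.29 ± 0.27 for Hoxa3, 0.15 ± 0.35 for Hoxa2 and 0.27 ± 0.31 for Hoxa4. Without uteri 1 and 5, these values were -0.13 for Hoxa5, -0.10 for Hoxa6, 0.09 for Hoxa7, 0.04 for Hoxa3, 0.51 for Hoxa2 and 0.42 for Hoxa4. Hoxa13 had 23 counts at most and a log2 fold change of -1.31 ± 0.87 SE (adjusted p = 0.376), and -0.91 without uteri 1 and 5.

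In the D cluster, Hoxd8 was the 1 HOX gene whose values did not overlap between the genotypes; 5.16% of all genes tested were without overlap in this direction and 5.53% in the other. It stood at 79.2, 63.7, 70.7, 68.3 and 67.6 CPM in controls 1 to 5. The conditional knockout uteri 1 to 5 had 36.7, 61.9, 55.1, 55.6 and 54.9 CPM. All 5 were below the lowest control, and uterus 1 was far below the rest.

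For Hoxd8 the log2 fold change was -0.40 ± 0.13 SE (adjusted p = 0.0657), with a 95% interval from -0.68 to -0.13. The exact permutation test gave p = 0.00794, the smallest that 5 uteri against 5 allow, unadjusted. Without uterus 1 the value was -0.30 and the adjusted p 0.0438, which is a call; without uteri 1 and 5 it was -0.28 with adjusted p = 0.0688. Hoxd8 shares no annotated exon base with another gene.

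The neighbors of Hoxd8 showed the same low value in uterus 1. Hoxd9 stood at 98.7, 91.4, 95.2, 89.7 and 83.6 CPM in controls, and at 42.1, 79.96, 72.3, 84.6 and 74.2 CPM in conditional knockout uteri. Of the latter, 4 of 5 were below every control. The log2 fold change was -0.38 ± 0.16 SE (adjusted p = 0.151, exact permutation p = 0.0159), and -0.22 without uteri 1 and 5.

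Hoxd10 stood at 98.6 to 122 CPM in controls and at 45.3, 98.9, 91.2, 102 and 90.7 CPM in conditional knockout uteri, where 3 of 5 were below every control. Its log2 fold change was -0.36 ± 0.18 SE (adjusted p = 0.244), and -0.17 without uteri 1 and 5. Hoxd11, the D paralogue of Hoxa11, stood at 35.8 to 58.0 CPM in controls and at 13.3 CPM in uterus 1, with the other 4 conditional knockout uteri between 32.7 and 55.6 CPM. The log2 fold change of Hoxd11 was -0.39 ± 0.30 SE (adjusted p = 0.455), and -0.32 without uteri 1 and 5. Hoxd4 at -0.16 ± 0.20 and Hoxd3 at -0.09 ± 0.26 were near 0 on the log2 scale, and stood at 0.07 and 0.06 without those 2 uteri.

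**Figure D3:**
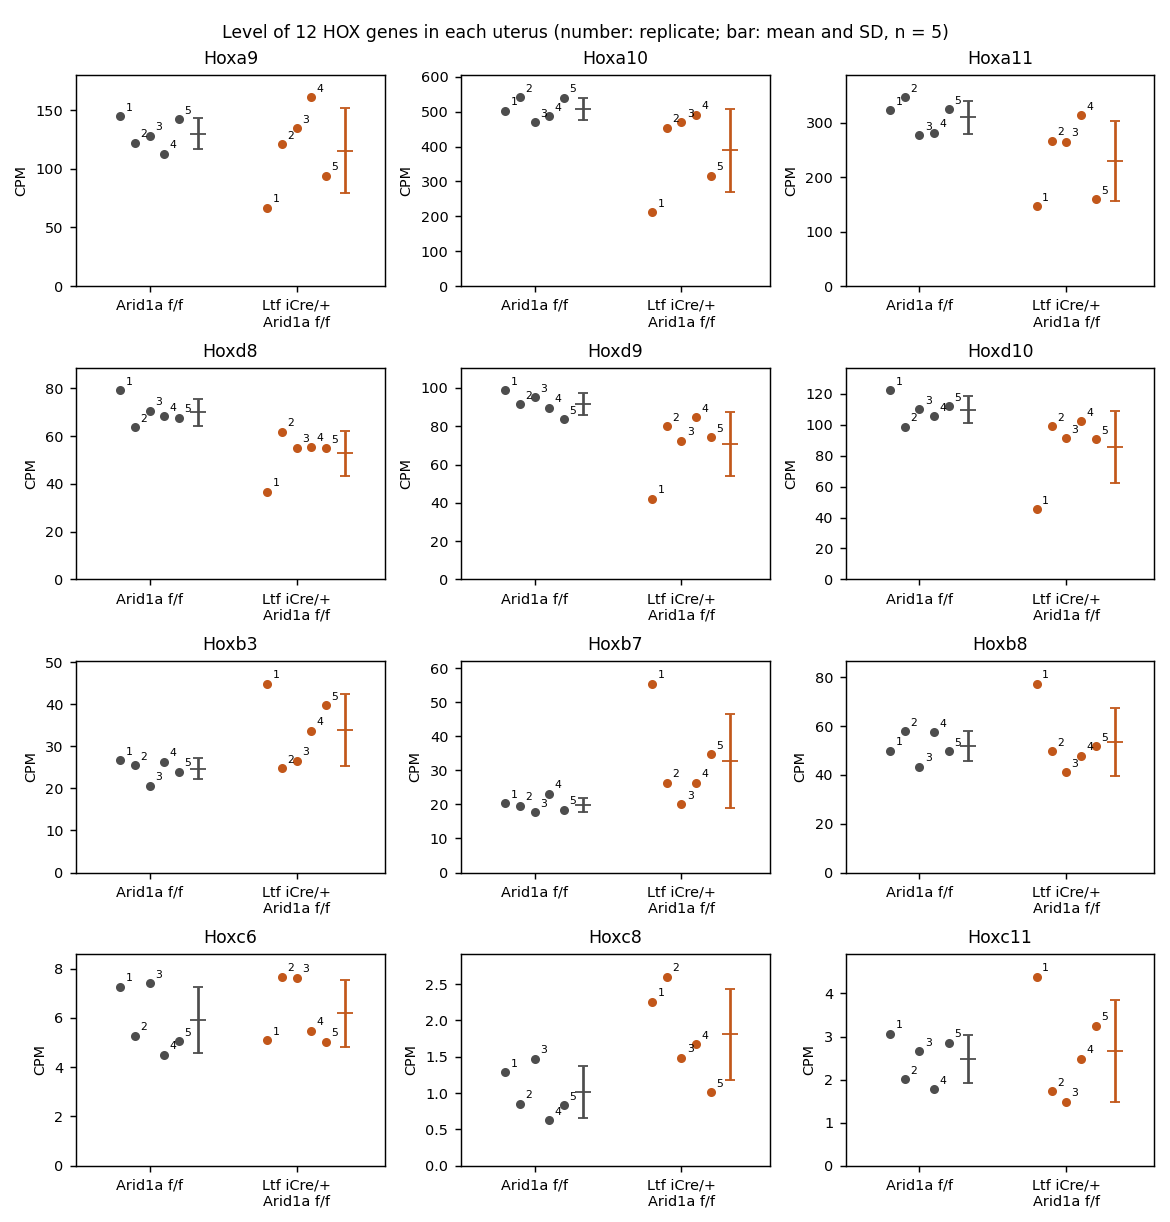
Level in CPM of 12 HOX genes in each uterus, with the 5 controls in gray and the 5 Ltf iCre/+ Arid1a f/f uteri in orange, numbered by replicate; the bar at the right of each group is its mean and SD. Conditional knockout uterus 1 is the lowest point for Hoxa9, Hoxa10, Hoxa11, Hoxd8, Hoxd9 and Hoxd10 and the highest for Hoxb3, Hoxb7 and Hoxb8, and only Hoxd8 among these 12 has no overlap between the genotypes.

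In the B cluster, uterus 1 held the highest of the 10 values for all 8 genes tested. Hoxb7 had the largest difference of the cluster. It stood at 20.3, 19.6, 17.6, 23.2 and 18.4 CPM in controls 1 to 5. The conditional knockout uteri 1 to 5 had 55.5, 26.4, 20.1, 26.4 and 34.8 CPM. Uterus 3 lay within the controls and the other 4 were above them.

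Hoxb7 had a log2 fold change of 0.72 ± 0.23 SE (adjusted p = 0.0731, exact permutation p = 0.0238). It was 0.85 without uterus 3 (adjusted p = 0.0320, a call), 0.44 without uterus 1, and 0.30 without uteri 1 and 5 (adjusted p = 0.171). Hoxb3 stood at 20.7 to 26.7 CPM in controls and at 44.9, 24.8, 26.5, 33.7 and 39.7 CPM in conditional knockout uteri, of which 3 were above every control. Its log2 fold change was 0.46 ± 0.16 SE (adjusted p = 0.0942); without uterus 2 it was called (0.55, adjusted p = 0.0421), and without uteri 1 and 5 it was 0.20. More than 50% of the exon bases of Hoxb3 (52.9%) are shared with the antisense gene Hoxb3os, so that its count is uncertain.

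Hoxb4, a regulator of blood stem cells, stood at 15.5 to 20.9 CPM in controls and at 34.7 and 26.7 CPM in uteri 1 and 5, with the other 3 between 16.7 and 18.6 CPM. The value on the log2 scale was 0.39 ± 0.20 SE for Hoxb4, 0.30 ± 0.18 for Hoxb6, 0.21 ± 0.13 for Hoxb5 and 0.20 ± 0.16 for Hoxb2, with adjusted p values from 0.240 to 0.465. For Hoxb4, Hoxb6 and Hoxb2, uteri 1 and 5 were the 2 uteri above every control. Without them the value was 0.02 for Hoxb4, -0.04 for Hoxb6, 0.05 for Hoxb5 and -0.03 for Hoxb2. Hoxb8 at 0.05 ± 0.16 and Hoxb9 at 0.03 ± 0.29 were near 0 on the log2 scale. Without uteri 1 and 5, Hoxb8 stood at -0.16 and Hoxb9 at -0.59 (adjusted p = 0.0663).

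In the C cluster, levels were low, with control means of at most 2.45 CPM per kb. Hoxc8, which acts in the skeleton and spinal cord of the trunk, stood at 1.29, 0.850, 1.47, 0.625 and 0.833 CPM in controls. The 5 conditional knockout uteri had 2.26, 2.60, 1.49, 1.67 and 1.01 CPM, from 44 to 154 counts over all libraries. Here uterus 2 was highest, 4 of 5 were above every control, and uterus 5 lay within the controls.

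Hoxc8 had a log2 fold change of 0.83 ± 0.31 SE (adjusted p = 0.118, exact permutation p = 0.0397), and 0.92 without uteri 1 and 5 (adjusted p = 0.0968). Hoxc6, the highest gene of the cluster, stood at 4.502 to 7.39 CPM in controls and 5.03 to 7.67 CPM in conditional knockout uteri, with a log2 fold change of 0.07 ± 0.20 SE. Hoxc11 stood at 1.78 to 3.06 CPM in controls and 1.49 to 4.39 CPM in conditional knockout uteri, with 0.11 ± 0.30. The other 4 tested, Hoxc4, Hoxc5, Hoxc9 and Hoxc10, ranged from -0.05 to 0.39 on the log2 scale with standard errors from 0.23 to 0.37.

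Set side by side by uterus, the clusters did not move as 1 unit. The median log2 deviation of the A genes from their control means was -1.005 in uterus 1 and -0.61 in uterus 5, and from -0.05 to 0.10 in uteri 2, 3 and 4. For the B genes it was 0.81 in uterus 1 and 0.50 in uterus 5, and from -0.05 to 0.11 in the other 3. For the D genes it was -1.08 in uterus 1 and -0.29 in uterus 5, and from -0.17 to -0.11 in the others. For the C genes it lay between 0.03 and 0.41 in all 5. The medians of the controls ranged from -0.15 to 0.16 in A, from -0.15 to 0.11 in B, from -0.16 to 0.34 in C and from -0.32 to 0.13 in D.

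**Figure D4:**
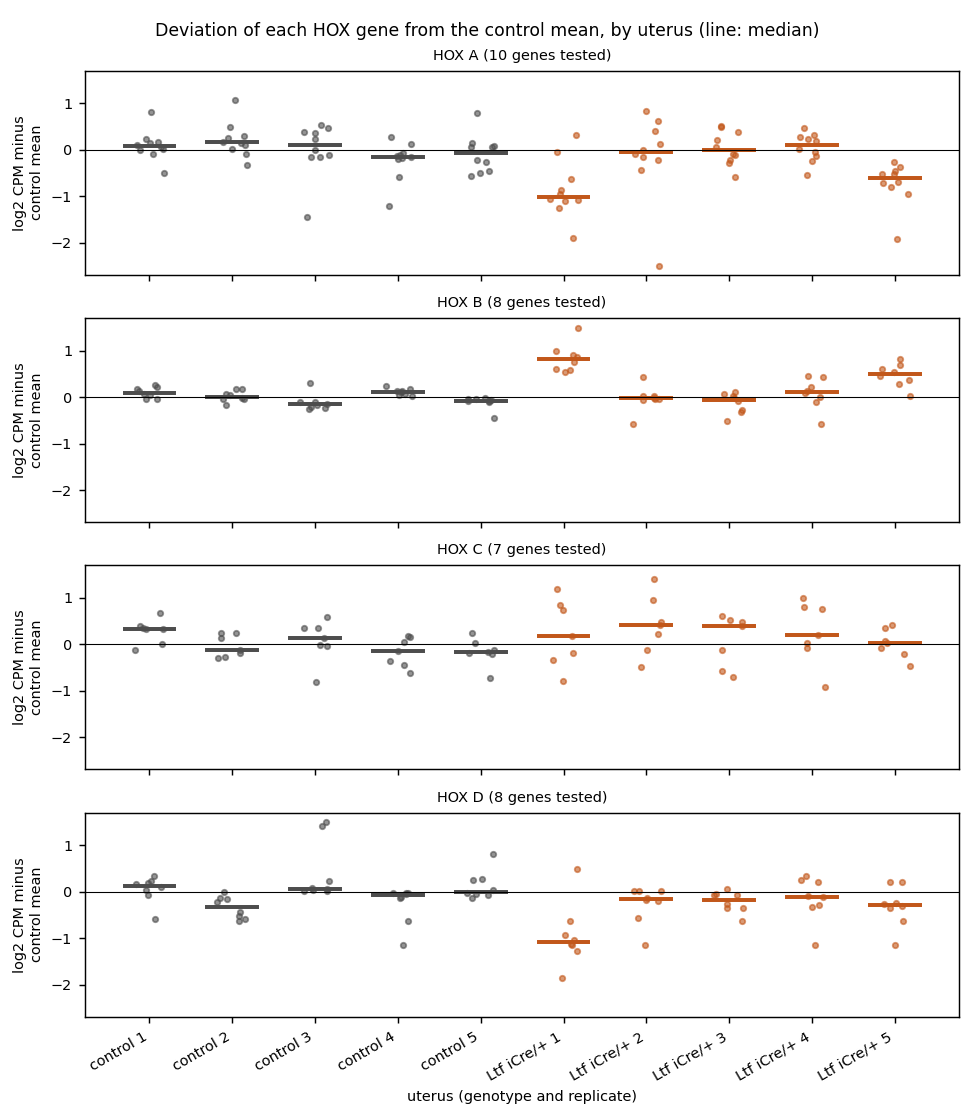
Deviation of each tested HOX gene from its control mean, in log2 CPM, for each of the 10 uteri and each cluster; points are genes, horizontal lines are medians, gray marks controls and orange Ltf iCre/+ Arid1a f/f uteri. In uterus 1 the medians of A (-1.005) and D (-1.08) are far below 0 and that of B (0.81) is above 0; uterus 5 shows the same in A (-0.61) and B (0.50), and uteri 2 to 4 lie near the controls.

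The summed level and its division among the clusters followed the same uteri. The sum over all 38 genes was 552 ± 24.2 CPM per kb in controls (range 523 to 579) and 464 ± 72.0 in conditional knockout uteri (SD, n = 5 each), with 361.5 in uterus 1, 422 in uterus 5 and 489.9 to 545 in the others. The B cluster held 40.2% of the sum in uterus 1 and 24.9% in uterus 5, against 13.0% to 16.0% in controls and 14.5% to 15.8% in the other 3 uteri. The A cluster held 40.1% and 44.4% in uteri 1 and 5, against 56.3% to 61.3% in controls. As a mean over the 5 conditional knockout uteri, the shares were 52.0% ± 9.06 for A, 24.4% ± 4.18 for D, 22.1% ± 10.97 for B and 1.46% ± 0.265 for C. Genes numbered 9 to 11 held 54.8% in uterus 1, 68.3% in uterus 5 and 76.4% to 78.2% in the others.

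**Figure D5:**
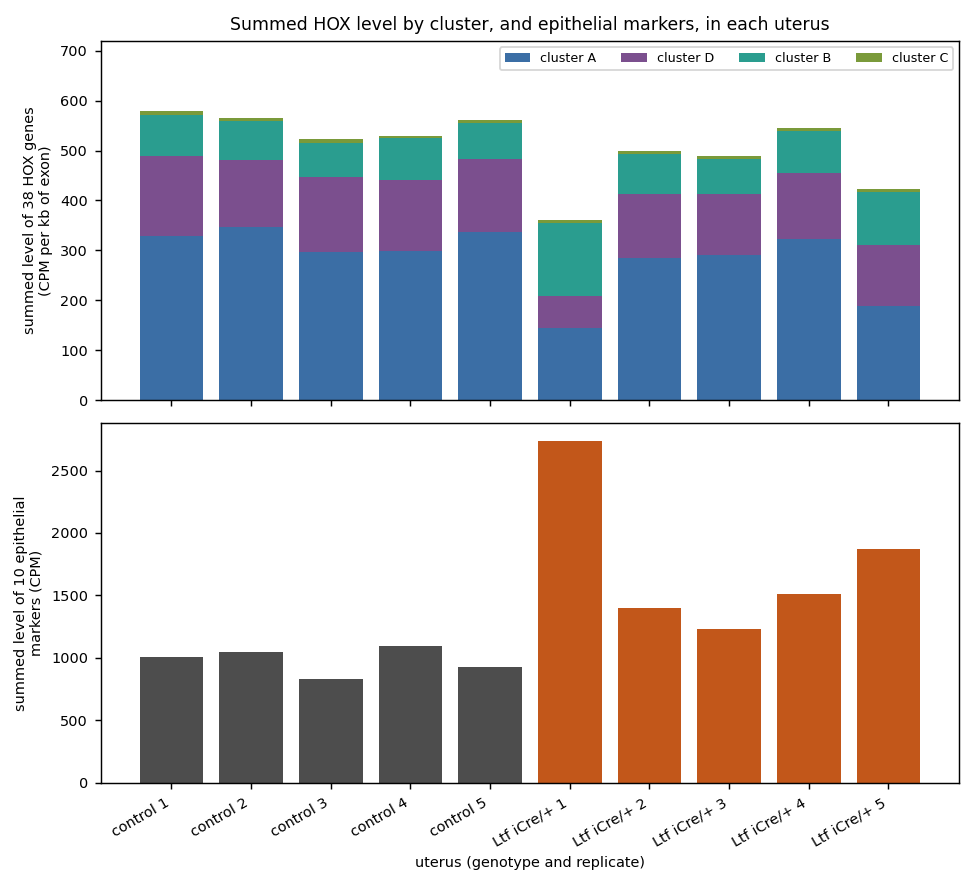
Upper bars, summed level of the 38 HOX genes in CPM per kb of exon for each of the 10 uteri, divided by cluster; lower bars, summed level of 10 epithelial markers in CPM in the same uteri, with controls in gray and Ltf iCre/+ Arid1a f/f uteri in orange. Conditional knockout uterus 1 has the lowest HOX sum (361.5), the largest B share (40.2%) and the highest marker sum (2740 CPM), with uterus 5 next in all 3.

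Marker sums of the cell types of the uterus are given by uterus, and uteri 3 and 4 also lay outside the controls in some of them. The epithelial marker sum of uteri 1 and 5, given above, was the highest of the 10. The sum of 9 leukocyte markers was 188 to 311 CPM in controls and 230 to 371 CPM in uteri 1 to 4, and 700.4 CPM in uterus 5; Cd3e was the 1 leukocyte marker called, higher. The sum of 9 smooth muscle markers of the myometrium was 6683 to 11640 CPM in controls, and 7787, 9364, 4757, 5087 and 3515 CPM in conditional knockout uteri 1 to 5, so that uteri 3, 4 and 5 were below every control; none of the 9 was called and all 9 had values below 0 on the log2 scale. The sum of 8 stromal markers was 13620 to 20640 CPM in controls. Conditional knockout uteri 1 to 5 had 21340, 18380, 13540, 11480 and 13920 CPM, with uteri 3 and 4 below and uterus 1 above every control. Col1a1, Col1a2 and Col3a1 made up most of this sum. In uterus 1, Col1a1, Col1a2 and Lum were above every control and Col3a1 lay within them. Pdgfra (180 CPM against 534 to 725), Dcn (1093 against 1344 to 1831), Hand2 and Pdgfrb were below every control there. Of the 8 markers, Dcn was called lower and none higher, where 4.51% of all genes tested were called lower. Pdgfra and Dcn were below every control in all 5 conditional knockout uteri, with Pdgfra at 180 to 504 CPM. The log2 fold change of Pdgfra was -0.70 ± 0.23 SE (adjusted p = 0.0735 with edgeR and 0.0217 with DESeq2). Of all genes tested, 5.16% were without overlap in this direction. Further markers were called without 1 conditional knockout uterus, namely Cd68 higher and Myh11 lower without uterus 2, Pdgfra lower without uterus 3 and Pdgfrb lower without uterus 5. No defining marker of these 4 lists was at 0 in any library. The part of the cell types in the HOX values was not tested.

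The clusters also hold noncoding genes, of which 48 lie within the clusters or 10 kb of their ends and 29 were tested. None was called higher and 1 lower, where 5.19% of all genes tested were called higher and 4.51% lower. The 1 gene called was Gm53, an intergenic noncoding RNA of the B cluster at chr11:96251105-96264868. Gm53 stood at 8.98, 7.49, 8.55, 8.66 and 6.37 CPM in controls 1 to 5. The conditional knockout uteri 1 to 5 had 3.20, 3.70, 5.71, 5.14 and 4.51 CPM, all below every control. Its log2 fold change was -0.85 ± 0.19 SE (adjusted p = 0.0174), the call was kept without each uterus in turn (adjusted p from 0.0145 to 0.0493), and without uteri 1 and 5 the adjusted p was 0.0383. Hoxb9, the nearest HOX gene, stood at 6.37 to 10.7 CPM in controls and 5.78 to 14.6 CPM in conditional knockout uteri. DESeq2 called 3 of these noncoding genes, all lower: Gm53, Mir196a-1 and Gm27454. It called 7.84% of all genes tested lower. The same 3 were the noncoding genes without overlap between the genotypes, where 5.16% of all genes tested were without overlap in this direction.

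The end of Gm53 lies 295 bases before the hairpin of Mir196a-1 at chr11:96265164-96265265. Counts on this hairpin, between 26 and 79 per library, were 1.05, 1.10, 0.924, 1.05 and 1.02 CPM in controls. They were 0.486, 0.439, 0.883, 0.654 and 0.434 CPM in conditional knockout uteri, without overlap, with a log2 fold change of -0.83 ± 0.25 SE (adjusted p = 0.0559; 0.0235 without uterus 3, a call; 0.00460 with DESeq2). Libraries of mRNA do not measure mature miRNAs, and these counts can come from the precursor or from a longer transcript across the locus. Mir10a, between Hoxb4 and Hoxb5, was at 1.02 and 1.26 CPM in uteri 1 and 5, between 0.270 and 0.450 CPM in the other 3 and between 0.273 and 0.383 CPM in controls (log2 fold change 0.99 ± 0.40 SE, adjusted p = 0.145). Without uteri 1 and 5 it was 0.17 for Mir10a and -0.64 for Mir196a-1 (adjusted p = 0.795 and 0.167).

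The 5p arms of the miR-196 and miR-10 hairpins of the HOX clusters are shown because miR-196 is known to act on HOX mRNAs, Hoxb8 foremost. The seed, bases 2 to 8, is in capitals, and sequences are from RefSeq. The pair of miR-196 sequences share 1 seed and the pair of miR-10 sequences another.
miR-196a-5p (Mir196a-1, B cluster, and Mir196a-2, C cluster): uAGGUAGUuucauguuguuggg
miR-196b-5p (Mir196b, A cluster): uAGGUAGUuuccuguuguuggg
miR-10a-5p (Mir10a, B cluster): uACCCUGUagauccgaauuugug
miR-10b-5p (Mir10b, D cluster): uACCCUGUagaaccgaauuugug
In the transcript Hoxb8-201, the stretch that pairs best with miR-196a-5p lies after the coding end at chr11:96284888-96284909, plus strand. Of its 22 bases, 21 form standard pairs and 1 a G with U pair.
Hoxb8 site: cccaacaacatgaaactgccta
Hoxb8 mRNA stood at 43.4 to 58.0 CPM in controls and 41.2 to 77.5 CPM in conditional knockout uteri, with a 95% interval of its log2 fold change from -0.29 to 0.40 (adjusted p = 0.874). Mature miR-196a was not measured.

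In the A cluster, the noncoding RNA Hoxa11os is transcribed opposite to Hoxa11, and 35.0% of the exon bases of Hoxa11 are shared with it. How the counting treated strand is not stated in the sources used here, so that reads of both genes may not be fully apart. Hoxa11os stood at 48.7, 64.2, 48.0, 64.1 and 81.7 CPM in controls. The 5 conditional knockout uteri had 10.7, 36.7, 51.9, 65.0 and 15.4 CPM, with uteri 1 and 5 the lowest of the 10. Its log2 fold change was -0.77 ± 0.42 SE (adjusted p = 0.275), and -0.26 without uteri 1 and 5. Gm27454, a noncoding gene of the same strand at chr6:52248332-52248535, inside the span of Hoxa11os, stood at 1.63 to 2.74 CPM in controls. The 5 conditional knockout uteri had 0.282, 1.17, 1.32, 1.55 and 0.420 CPM, all below every control, from 18 to 191 counts over all libraries. The log2 fold change of Gm27454 was -1.16 ± 0.42 SE (adjusted p = 0.105 with edgeR and 0.0272 with DESeq2), and -0.65 without uteri 1 and 5 (edgeR adjusted p = 0.111). Hotair of the C cluster, at 0.883 CPM in controls on average, had a log2 fold change of -0.46 ± 0.48 SE (adjusted p = 0.606).

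Of the 8 protein-coding genes that flank the clusters, 6 were tested, and 1 was called. Over all genes tested, 5.19% were called higher and 4.51% lower. Calcoco1, beside the C cluster, was lower at 59.5 to 80.7 CPM in conditional knockout uteri against 93.5 to 116.5 CPM in controls (log2 fold change -0.62 ± 0.10 SE, adjusted p = 0.00405). The C genes tested did not share this direction, with 6 of 7 values above 0 on the log2 scale. Skap2, Skap1, Ttll6, Smug1 and Mtx2 were not called.

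The partners of HOX proteins were examined as a list of 9 PBX, MEIS and PKNOX genes, all tested. None was called higher and 1 lower, and the median log2 fold change was -0.11, against 0.03 over all genes. The gene called was Pknox2, which stood at 72.3 to 91.6 CPM in controls and 31.5 to 58.6 CPM in conditional knockout uteri (log2 fold change -0.86 ± 0.15 SE, adjusted p = 0.00707). Meis2 (-0.37 ± 0.14 SE, adjusted p = 0.115) was called lower without control 5 (adjusted p = 0.0349).

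Of 12 Polycomb genes, all tested, 2 were called higher and none lower, where 5.19% of all genes tested were called higher and 4.51% lower. Ezh2, the methyltransferase that marks silent HOX clusters, stood at 44.3 to 48.6 CPM in controls and at 90.9, 73.8, 59.1, 56.4 and 57.4 CPM in conditional knockout uteri (log2 fold change 0.53 ± 0.13 SE, adjusted p = 0.0263). Its partner Eed stood at 49.1 to 53.2 CPM in controls and 56.9 to 76.3 CPM in conditional knockout uteri (0.31 ± 0.08 SE, adjusted p = 0.0411). Both were highest in uterus 1. The call of Ezh2 was lost without control 2, 3, 4 or 5 (adjusted p from 0.0581 to 0.0621), and that of Eed without 8 of the 10 uteri (adjusted p up to 0.0999) and without uteri 1 and 5 (0.0705). Ezh1 (-0.30 ± 0.11 SE, adjusted p = 0.101) was called lower without uterus 5 (adjusted p = 0.0441) and without uteri 1 and 5 (0.0185). Suz12, the third core subunit, stood at 0.25 ± 0.10 SE on the log2 scale (adjusted p = 0.135). Of 8 MLL and trithorax genes tested, none was called by edgeR or DESeq2, and 1 had an unadjusted p below 0.05.

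Among 8 genes that feed into HOX expression, retinoic acid and steroid receptors among them, 5 were tested and none was called by edgeR or DESeq2, with 0 at an unadjusted p below 0.05. The progesterone receptor Pgr, which lies upstream of Hoxa10 in the uterus, had a log2 fold change of 0.11 ± 0.16 SE (adjusted p = 0.722), and the estrogen receptor Esr1 -0.25 ± 0.16 SE (adjusted p = 0.378). Without uteri 1 and 5, Esr1 was called lower (-0.53, adjusted p = 0.0180). Of 8 uterine genes linked to Hoxa10 or Hoxa11, 7 were tested, 1 was called higher and 2 lower. The share over all genes tested was 5.19% called higher and 4.51% lower. Ptger3 and Ptger4, prostaglandin E2 receptors reported to respond to Hoxa10 in stroma, were lower, at -1.08 ± 0.21 SE (adjusted p = 0.0107) and -0.62 ± 0.11 SE (adjusted p = 0.00559). Wnt7a, an epithelial Wnt ligand whose loss changes Hoxa10 and Hoxa11 in the uterus, was higher at 1.64 ± 0.28 SE (adjusted p = 0.00554). Emx2, reported to be repressed by Hoxa10, stood at 0.15 ± 0.13 SE (adjusted p = 0.504). Without uteri 1 and 5, the integrin Itgb3 (-0.29 ± 0.15 SE, adjusted p = 0.2499) was also called lower (adjusted p = 0.00732).

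Of 10 homeobox genes outside the clusters, 4 were tested and 1 was called higher, where 5.19% of all genes tested were called higher. Msx2, which acts with Msx1 in uterine receptivity, stood at 1.80 to 4.60 CPM in controls and at 28.3, 12.1, 5.61, 10.3 and 18.8 CPM in conditional knockout uteri, with uteri 1 and 5 the highest (log2 fold change 2.50 ± 0.42 SE, adjusted p = 0.00523; 1.82 without uteri 1 and 5, adjusted p = 0.00647). Its paralogue Msx1 stood at 0.11 ± 0.19 SE (adjusted p = 0.760).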

How the data were processed

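RNA of 10 mouse uteri at GD 3.5 (5 of each genotype) was sequenced by the authors from mRNA libraries with 50 bp paired reads. Per the paper's methods and the submitters' processing notes, reads were trimmed with cutadapt 1.18 and Trim Galore 0.6.4, checked with FastQC 0.11.9, aligned to GRCm38 with STAR 2.7.3a and counted per gene. The authors deposited 1 table of whole-number counts, neither normalized nor filtered. Which annotation release and strand mode the counting used is not given in the sources used here. Columns were matched to samples by name.

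Identifiers were matched to a GENCODE annotation of GRCm38, which held 45143 of 45706; exon length is the union of a gene's annotated exons, and 15 HOX genes share exon bases with another gene. Genes that averaged 1 count per library or more were fitted with edgeR 4.0.16 under R 4.3.3 (trimmed mean of M-values scaling, genotype as the only term, Benjamini-Hochberg over all genes tested, threshold 0.05). CPM used the scaled library sizes, and log2 CPM a prior count of 2. HOX genes were also compared by a two-sided exact permutation test of mean log2 CPM over all 252 arrangements (smallest p 0.00794), which is unadjusted. Adjusted p values and 95% intervals are from edgeR unless DESeq2 1.42.0 is named. The steps were tested on simulated data.

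Alternatives were other scalings, DESeq2, other filters, a replicate block and leaving out each uterus; leaving out Ltf iCre/+ Arid1a f/f uteri 1 and 5 together was added after seeing the data. Library pairs of a genotype differed by far more than sampling noise (lowest chi-square per gene, 43.2). The HOX genes, other lists and sequences shown were chosen with earlier results of these data known. Named are HOX genes at 1 CPM per kb or more or without overlap between genotypes, noncoding genes within 10 kb of the clusters, flanking genes, and called genes of the lists; other HOX genes are given more briefly. Zero counts are limited by 3 counts per library, which covers counting error only. The p values measure the spread between these 10 uteri.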

Additional observations from a re-analysis of the deposited data

Results flagged for a closer look

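In 4 HOX genes the value of 1 library lay far from the others of its genotype, by Dixon's test on log2 CPM within 5 uteri, out of 44 groups of 5 examined (22 genes in both genotypes). Chance flags about 1 in 20 groups, and genes of a cluster are not independent of each other. All 4 lie in the D cluster and all 4 are Ltf iCre/+ Arid1a f/f uterus 1. Hoxd3 stood at 1.44 log2 CPM there, against 2.60 in the nearest uterus. Hoxd8 stood at 5.20 against 5.78, Hoxd9 at 5.40 against 6.18, and Hoxd10 at 5.50 against 6.50. The same uterus had the highest summed epithelial markers, 2740 CPM; the part of this in the HOX values was not tested. Without it, the log2 fold changes of these genes were 0.09 for Hoxd3, -0.30 for Hoxd8, -0.24 for Hoxd9 and -0.20 for Hoxd10.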

How the results depend on the processing

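Under other scalings, other filters and the replicate block, 0 HOX genes were called, as with edgeR on all 10 uteri. With DESeq2, 2 HOX genes were called higher and 1 lower. Leaving out 1 uterus gave 0 to 1 called higher and 0 to 1 called lower: Hoxb3 without Ltf iCre/+ Arid1a f/f uterus 2, Hoxb7 without uterus 3 and Hoxd8 without uterus 1. The median log2 fold change of the HOX genes ranged from -0.09 to 0.05 without 1 uterus. Replicate numbers are shared by the genotypes, and whether they pair the mice is not stated in the sources used here. Deviations of same-numbered uteri had correlations from -0.128 to 0.189. Only for number 5 was this above the highest correlation with a differently numbered control (0.189 against 0.121). Low correlations cannot exclude a pairing, and the paper used littermates where it could. With a replicate block, 1704 genes were called in place of 2438, and Hoxb9 changed sign to -0.085. With the longest transcript as length, the A share in controls was 61.2% and the D share 24.4%; with no length correction, the shares were 63.9% for A, 12.55% for B and 22.6% for D. Of 561 values of 33 single genes under alternatives, 517 kept direction and side of the threshold, 15 lost the call (Ezh2 and Eed), 6 gained it and 23 changed sign, all in HOX genes that were not called. Without both uteri 1 and 5, the log2 fold change was 0.095 for Hoxa7, 0.096 for Hoxa9, -0.033 for Hoxb2, -0.039 for Hoxb6, -0.16 for Hoxb8, -0.585 for Hoxb9, -0.38 for Hoxc11, 0.059 for Hoxd3 and 0.073 for Hoxd4. Without 1 uterus it ranged from -0.18 to 0.054 for Hoxa7, -0.121 to 0.134 for Hoxb8, -0.221 to 0.15 for Hoxb9, -0.024 to 0.152 for Hoxc6, -0.146 to 0.261 for Hoxc11 and -0.209 to 0.087 for Hoxd3. The cause of these changes was not tested. Depth limits the genes below 1 CPM per kb, among them Hoxa13, Hoxd12 and Hoxd13.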

Other observations

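Within the B cluster, the balance of neighboring genes differed between uteri. The ratio of Hoxb7 to Hoxb8 in CPM per kb was 0.696, 0.577, 0.694, 0.686 and 0.633 in controls 1 to 5. The Ltf iCre/+ Arid1a f/f uteri 1 to 5 had 1.22, 0.907, 0.833, 0.943 and 1.14, so that the genotypes did not overlap, uteri 2, 3 and 4 included. This ratio was chosen after its values were seen and has no test. The ratio of the A and D clusters together to the B cluster was 5.20 to 6.65 in controls, and 1.44, 5.23, 5.79, 5.51 and 2.96 in uteri 1 to 5 with iCre. Counts of Hoxa11os per count of Hoxa11 were 0.151 to 0.252 in controls, 0.0728 in uterus 1, 0.0967 in uterus 5 and 0.137 to 0.207 in the other 3.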
